A study of Mus musculus with 6 samples.

Results

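The genes of the cell cycle and of DNA replication were examined in olfactory epithelium of Harlequin mutant mice. They comprised 34 genes, given as a list of names and found through the gene symbol of each probe set on the array, out of 18193 genes that the platform table names singly. Of these, 16 encode factors of DNA replication and 18 factors of mitosis. The 34 genes carry 78 of 34945 singly named probe sets. No measured value entered the choice of the list, although results of these data were known when it was proposed.

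RNA came from the microdissected olfactory epithelium of 6 male mice aged 6 months, 3 Harlequin mutants (Hq/Y) and 3 littermate controls (+/Y), each profiled on 1 Affymetrix array. The labels describe the mice of a genotype as biological replicates. Harlequin is a proviral mutation of the X-linked gene Aifm1, formerly Pdcd8, which encodes the mitochondrial flavoprotein apoptosis-inducing factor. The mutation is carried in the germ line, so all cells of the mouse have it, and it lowers Aifm1 without removing it. The labels give the strain as B6CBACAw-J/A-Pdcd8-Hq/J for the mutants and B6CBACa for the controls, but the titles call the controls littermates. The labels therefore do not settle whether strain background differed between the groups. Any such difference cannot be told apart from genotype. The stated aim was to relate gene expression to neurodegeneration under oxidative stress.

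The olfactory epithelium replaces its sensory neurons throughout life. Globose basal cells divide to produce new neurons, and horizontal basal cells form a mostly quiescent reserve. A dividing cell first licenses its replication origins by loading the MCM helicase, then copies its DNA in S phase with the sliding clamp PCNA and a supply of deoxynucleotides. It enters mitosis when cyclin-bound CDK1 becomes active, and leaves it when the anaphase-promoting complex has cyclins and securin degraded. Transcripts of these genes are low in resting cells and rise with each cycle, those of replication around the start of S phase and those of mitosis in G2. In bulk tissue, fewer dividing cells and less of these RNAs per dividing cell cannot be told apart.

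The mutated gene and the tissue were checked first. The signal of Aifm1 was 335.4, 221.1 and 211.2 in the mutants, replicates 1 to 3, against 1239.9, 1255.6 and 1128.2 in the controls. The groups lay far apart, and Aifm1 fell in Harlequin (log2 fold change -2.20, SE 0.18, limma adjusted p = 0.0158; exact two-sided permutation p = 0.1, the smallest that 3 against 3 arrays allow). Fitted without an intensity trend the difference did not pass (limma adjusted p = 0.0887), nor did it with control replicate 1, 2 or 3 left out (limma adjusted p = 0.097, 0.0616 and 0.068). Omp, the marker of mature olfactory neurons, lay between 15891.8 and 18821.7 on all 6 arrays, and Krt5, a keratin of horizontal basal cells, between 871.9 and 1679.6. The arrays had median signals from 107.9 to 119.7, and the trimmed mean was 500.0 on each. Precision is limited by the number of arrays.

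Of the 34 genes, 32 had a probe set bright enough to be tested, 14 of replication and 18 of mitosis. The minimum was a mean signal of 61.1 over the 6 arrays, the 40th percentile of all probe sets. Cdc6 and Tyms lay below it. Each gene was represented by its brightest probe set, and differences are Harlequin minus control on the log2(signal + 16) scale, which understates differences of dim genes. In limma, 0 of the 32 genes changed at an adjusted p under 0.05, where 0.0303% of all 13219 genes tested did, and the smallest adjusted p among the 32 was 0.981. At an unadjusted p under 0.05 there were 2, Ccna2 and Mki67, against 4.58% of all genes. Both were higher in Harlequin, as were 2% of all genes, and 0 were lower, against 2.58%. All 3 Harlequin values lay above all 3 control values for 3 genes, Ccna2, Ccnb2 and Cdk1, against 5.02% of all genes, and for 0 genes they lay below, against 5.34%. By sign alone, 27 of the 32 differences were above 0, compared with 6610 of the 13219 genes tested. The median difference was 0.12, compared with 0.00 for all genes tested. When each array was left out in turn, 19 of the 32 genes kept 1 direction throughout, 16 of them higher in Harlequin. The same count was not made over all genes, and these fits share most arrays, so it does not measure how stable the members are. The median difference of the 32 genes was 0.07 without control replicate 2, 0.08 without control replicate 1 and 0.20 without Harlequin replicate 3. It was 0.23 without control replicate 3 and 0.19 with array weights.

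**Figure D1:**
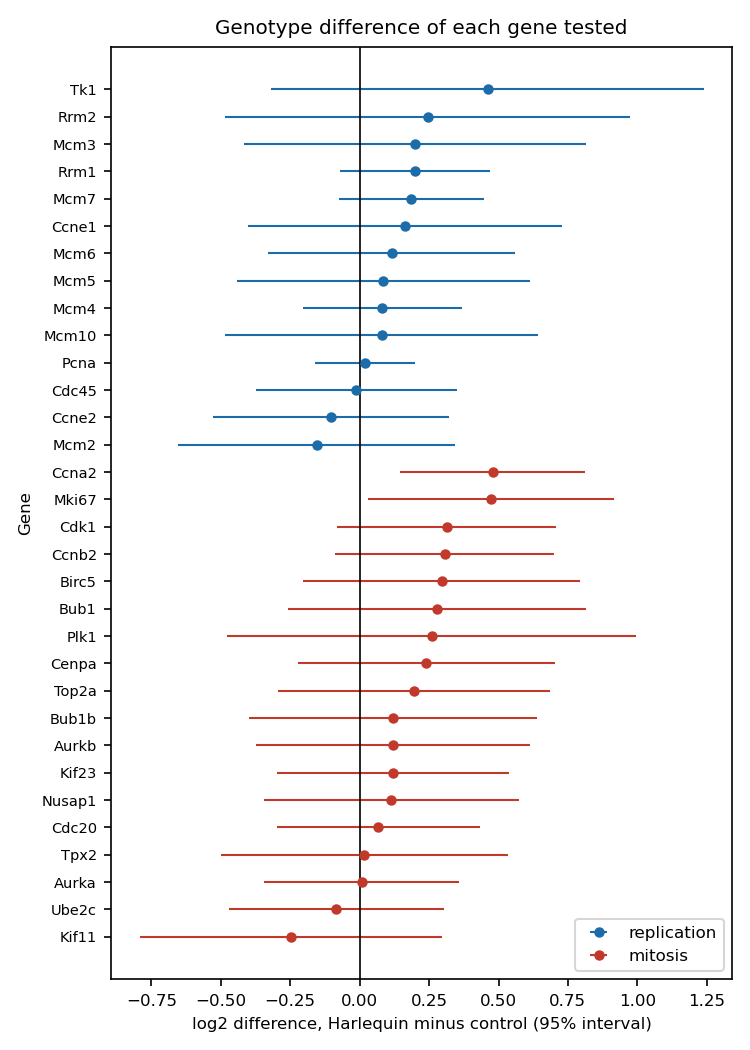
Log2 difference between the genotypes (Harlequin minus control, horizontal axis) for the 32 genes tested, with 95% intervals from limma on 3 against 3 arrays. Replication genes are blue and mitosis genes red. The intervals of Ccna2 and Mki67 lie above 0 and the other 30 include 0.

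The 95% intervals were wide. For 30 of the 32 genes the interval included 0, and for 31 it lay within a log2 of 1 in either direction. The exception was the thymidine kinase gene Tk1, with an interval reaching 1.24. The spread between arrays of a genotype was a median log2 SD of 0.25 for the 32 genes and 0.18 for all genes tested.

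The mitosis genes are taken first, beginning with the kinase that starts mitosis and its cyclins. Ccna2 encodes cyclin A2, which acts in S phase and at mitotic entry. Its brightest probe set gave 481.8, 403.1 and 386.6 in Harlequin and 311.5, 265.9 and 319.9 in controls. The genotypes did not overlap, with Harlequin replicate 1 highest and control replicate 2 lowest (log2 difference 0.48, 95% interval 0.15 to 0.81, limma adjusted p = 0.981). The other probe set of the gene gave 324.9, 395.7 and 319.2 in Harlequin and 299.2, 273.3 and 386.5 in controls, with a log2 difference of 0.12. There control replicate 3 lay above Harlequin replicates 1 and 3, so that the separation of the genotypes was seen at 1 of the gene's 2 probe sets.

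Cdk1 encodes the kinase itself, and its only probe set gave 303.1, 274.2 and 282.1 in Harlequin and 245.9, 180.3 and 263.7 in controls. The highest control, replicate 3, was close to the lowest mutant (log2 difference 0.31, 95% interval -0.08 to 0.71). Ccnb2, for cyclin B2, gave 210.0, 267.7 and 214.4 in Harlequin and 184.6, 159.3 and 206.5 in controls. Control replicate 3 again lay just below the mutants and control replicate 2 was the lowest array (0.31, 95% interval -0.09 to 0.70).

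Mki67 encodes the Ki-67 antigen, the histological marker of cycling cells. It gave 703.7, 782.1 and 689.7 in Harlequin and 472.3, 410.8 and 710.5 in controls. The mutants were alike, whereas control replicate 3 stood within their range and the other controls well below it (log2 difference 0.47, 95% interval 0.03 to 0.92, limma adjusted p = 0.981). Leaving out 1 array moved this difference between 0.31 and 0.70. The survivin gene Birc5, a subunit of the chromosomal passenger complex, had the same layout. It gave 227.4, 250.9 and 211.8 in Harlequin and 148.9, 160.7 and 258.8 in controls, where control replicate 3 was the highest of the 6 arrays (0.30, 95% interval -0.20 to 0.79).

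Among the genes of chromosome segregation, Top2a, for the topoisomerase that untangles sister chromatids, gave 439.2, 491.3 and 289.3 in Harlequin and 332.2, 299.4 and 410.9 in controls. Here Harlequin replicate 3 was the lowest array of all, and the groups overlapped fully (0.20, 95% interval -0.29 to 0.68). The spindle checkpoint kinase Bub1 differed by 0.28, its partner Bub1b by 0.12 and the centromeric histone Cenpa by 0.24, all with overlapping groups. Plk1, the Polo-like kinase, was scattered, with 167.8, 122.2 and 96.8 in Harlequin and 59.0, 144.6 and 122.8 in controls. Its difference of 0.26 came from the low control replicate 1 and was -0.07 without that array.

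Several mitosis genes lay near 0 or below it. The aurora kinase gene Aurka differed by 0.007 (95% interval -0.34 to 0.36) and Cdc20, an activator of the anaphase-promoting complex, by 0.07. The spindle assembly factor Tpx2 differed by 0.02 at its brightest probe set, whereas its other probe sets above the minimum each differed by -0.38. At 1 of these all Harlequin values (65.6, 61.3 and 48.5) lay below all controls (78.6, 80.2 and 81.8). The direction for Tpx2 therefore depends on the probe set. Aurkb, Kif23 and Nusap1, which act on the central spindle and the spindle microtubules, each differed by between 0.11 and 0.12. Ube2c, the ubiquitin-conjugating enzyme of the anaphase-promoting complex, gave 295.3, 398.3 and 275.9 in Harlequin and 338.7, 311.1 and 371.2 in controls (-0.08, 95% interval -0.47 to 0.30). Harlequin replicates 1 and 3 were the lowest of the 6 arrays and Harlequin replicate 2 the highest. Kif11, the kinesin that separates the spindle poles, gave 68.0, 101.8 and 101.4 in Harlequin and 128.4, 85.0 and 117.4 in controls. It differed by -0.25 (95% interval -0.79 to 0.30), and all 3 of its measured probe sets were lower in Harlequin on average.

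Of the 18 mitosis genes, 16 had a difference above 0, 0 passed the test over all genes and the median was 0.16. The median was 0.09 without control replicate 2, 0.30 without Harlequin replicate 3, 0.28 without control replicate 3 and 0.24 with array weights.

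The replication genes differed less at the probe sets used. An unadjusted p under 0.05 was seen for 0 of the 14, against 4.58% of all genes. Groups that did not overlap were seen for 0 of the 14, against 5.02% of all genes higher and 5.34% lower. With 14 genes, counts of 0 are near these shares. The core of the replicative helicase is the ring of Mcm2 to Mcm7. Mcm7 gave 1317.6, 1630.7 and 1494.3 in Harlequin and 1381.0, 1188.8 and 1322.0 in controls at its brightest probe set (log2 difference 0.19, 95% interval -0.08 to 0.45). Harlequin replicate 1 lay below control replicates 1 and 3, so the groups overlapped. Its other 3 probe sets differed by 0.20, -0.20 and -0.01. Mcm3 differed by 0.20, Mcm6 by 0.12, Mcm5 by 0.09 and Mcm4 by 0.08, and in each of these control replicate 3 was above the other controls. Mcm6, for example, gave 583.0, 471.7 and 413.3 in Harlequin and 359.8, 435.1 and 566.2 in controls. The highest control was nearly level with the highest mutant there. Mcm2 stood alone in the ring with a difference of -0.15 at its brightest probe set, which gave 277.0, 334.1 and 218.2 in Harlequin and 320.6, 378.3 and 233.7 in controls. Its other probe set gave 239.3, 297.7 and 183.2 against 221.2, 185.1 and 180.5, a difference of 0.26. The direction for Mcm2 therefore depends on the probe set.

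Mcm10, which helps to activate the helicase, differed by 0.08 and Cdc45, a component of the active helicase, by -0.01. Pcna was the steadiest gene of the list. It gave 5928.9, 5527.4 and 5191.7 in Harlequin and 5409.0, 5285.7 and 5712.3 in controls, so that the highest array was 1.14 times the lowest. Its difference was 0.02, with a 95% interval of -0.16 to 0.20. The E-type cyclins, which start S phase with CDK2, lay on either side of 0, with Ccne1 at 0.16 and Ccne2 at -0.10.

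The enzymes of deoxynucleotide supply differed among themselves in how much they varied between mice. Rrm2, the regulated subunit of ribonucleotide reductase, gave 564.7, 542.1 and 608.3 in Harlequin and 390.0, 320.2 and 875.8 in controls. The mutants lay close together, with 1 control far above them and 2 below (log2 difference 0.24, 95% interval -0.49 to 0.98, or -0.04 without control replicate 2). Control replicate 3 was 2.74 times control replicate 2, the widest ratio among controls of any of the 34 genes. The other probe sets of Rrm2 gave differences of 0.36 and 0.63. Rrm1, the large subunit of the same enzyme, gave 661.1, 688.3 and 608.4 in Harlequin and 619.3, 554.1 and 527.2 in controls. Harlequin replicate 3 alone lay below a control, replicate 1, and both measured probe sets were higher on average in Harlequin (0.20 and 0.29). Tk1 gave 197.1, 170.2 and 85.2 in Harlequin and 126.5, 63.6 and 119.9 in controls, with Harlequin replicate 3 below 2 of the controls (0.46, 95% interval -0.32 to 1.24).

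Cdc6 and Tyms were too dim to be tested. The licensing factor Cdc6 gave 77.1, 49.5 and 55.5 in Harlequin and 40.5, 40.8 and 35.6 in controls, and the 3 mutants lay above the controls. The thymidylate synthase gene Tyms gave no more than 33.7 at any of its 4 singly named probe sets. A further probe set that names both Tyms and its pseudogene was not used.

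The 14 replication genes had a median difference of 0.10, with 11 above 0. That median was 0.04 without Harlequin replicate 1, 0.03 without control replicate 1, 0.03 without control replicate 2, 0.20 without Harlequin replicate 3 and 0.20 without control replicate 3. It was 0.17 with array weights.

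**Figure D2:**
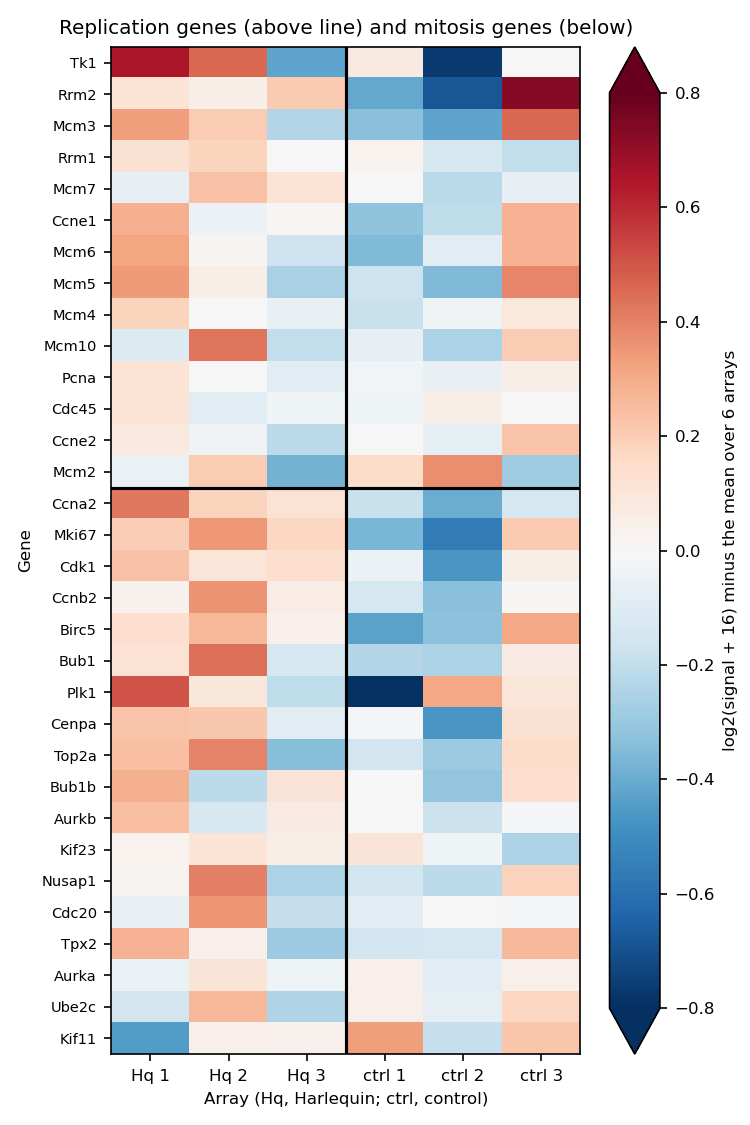
Log2(signal + 16) of each of the 32 tested genes on each of the 6 arrays, as the deviation from that gene's mean over the arrays. Columns are arrays (Hq, Harlequin; ctrl, control), rows are genes, replication above the horizontal line and mitosis below it. The column of control replicate 2 holds the lowest value of 15 genes, and the columns of Harlequin replicates 1 and 2 hold the highest of 13 and 12.

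Replication and mitosis genes were then set side by side. The score of a set on an array is the mean, over its genes, of the log2 deviation from the gene's mean over the 6 arrays. In Harlequin replicates 1 to 3 the replication score was 0.17, 0.12 and -0.12, and in the controls it was -0.12, -0.20 and 0.15. The mitosis score was 0.13, 0.19 and -0.06 in the mutants, with -0.12, -0.22 and 0.09 in the controls. Both scores thus ordered the mice in nearly the same way. Harlequin replicates 1 and 2 and control replicate 3 were high, while control replicates 1 and 2 and Harlequin replicate 3 were low, and the genotypes overlapped in both.

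The replication score was 0.06 ± 0.16 in Harlequin and -0.06 ± 0.19 in controls (SD, n = 3). The mitosis score was 0.09 ± 0.13 and -0.09 ± 0.16 (SD, n = 3). The difference between genotypes was 0.11 for replication and 0.17 for mitosis, which was below the SD of either genotype for replication and just above both SDs for mitosis. For replication it was 0.05 without Harlequin replicate 1, 0.04 without control replicate 2, 0.20 without Harlequin replicate 3 and 0.22 without control replicate 3. For mitosis it was 0.10 without control replicate 2 and 0.26 without control replicate 3. Subtracted on each array, mitosis minus replication was -0.05, 0.07 and 0.07 in Harlequin and -0.005, -0.02 and -0.07 in controls, again with overlap. No test was made on these scores, because the genes were proposed with results of these data known.

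**Figure D3:**
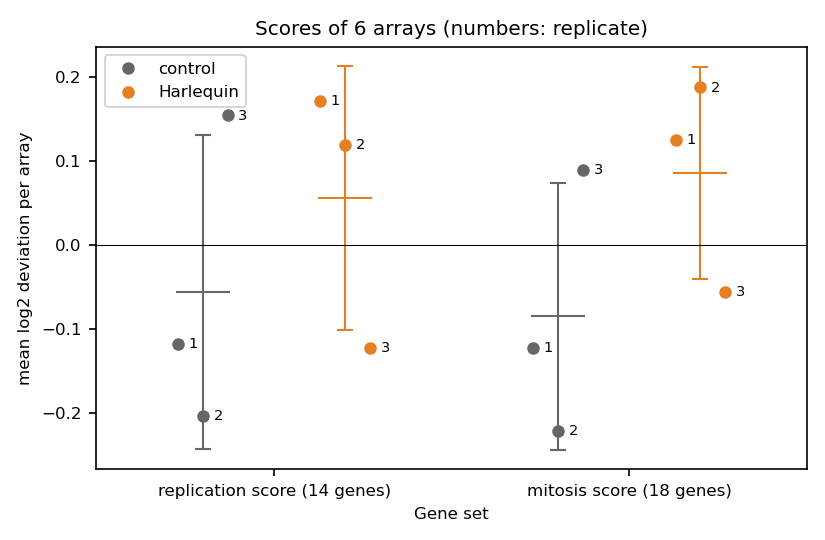
Score of the 14 replication genes and the 18 mitosis genes on each array, as the mean log2 deviation per array. Points are arrays with their replicate number, horizontal bars the mean and whiskers the SD of 3 arrays. Control replicate 3 lies among the Harlequin arrays, and Harlequin replicate 3 among the controls, in both sets.

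Which of the sets differed more depended on the probe sets chosen. With the brightest probe set of each gene the median was 0.10 for replication and 0.16 for mitosis. When probe sets with the suffixes _s_at, _x_at and _a_at, which can bind more than 1 transcript, were left out where a gene had another, the medians were 0.19 and 0.12. Over all 52 probe sets above the minimum, each taken on its own, they were 0.19 for 27 replication probe sets and 0.12 for 25 mitosis probe sets. The score differences were then 0.17 and 0.10. In that fit 0 of the 52 passed in limma, 40 had a difference above 0 and 2 had an unadjusted p under 0.05. Of all 27022 probe sets in the fit, 7 passed and 1270 had an unadjusted p under 0.05, and their median difference was -0.004. With Ccna2 counted among the replication genes the medians were 0.12 and 0.12. Of the 14 genes with several probe sets above the minimum, 10 had them all on one side of 0. The other 4 were Mcm2, Mcm4, Mcm7 and Tpx2. No such count was made over all genes, so it shows nothing particular to the members.

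The order of the arrays was followed gene by gene. Control replicate 2 was the lowest of the 6 arrays for 15 of the 32 genes, compared with 17.7% of all genes tested. It was lowest for 6 of 14 replication genes and 9 of 18 mitosis genes. Harlequin replicate 1 was the highest array for 13 genes and Harlequin replicate 2 for 12, compared with 18.4% and 15.4% of all genes. Harlequin replicate 3 was highest for 0, compared with 16.6% of all genes. Control replicate 3 was above the other 2 controls in 22 of the 32 genes, compared with 38.0% of all genes. It exceeded the Harlequin mean in 18 of the 32 genes, 10 of replication and 8 of mitosis, which is near the 52.4% of all genes.

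The promoters of the genes are shown because replication and mitosis genes differ there in known ways. E2F factors bind sites such as TTTCCCGC in genes of the start of S phase. Genes of G2 and mitosis often carry the cell cycle genes homology region, CHR, with the core TTTGAA, which the LIN54 subunit of the MuvB complex binds, and CCAAT boxes bound by NF-Y. RefSeq windows (GRCm38.p6) from 250 bases before to 50 after the gene start were found for 29 of the 34 genes, in 30 windows, since Mcm7 has 2. Ccne2, Mcm4, Ccna2, Aurkb and Tpx2 were not matched. The windows were searched on both strands for TTTGAA, for CCAAT and for the E2F forms TTTCCCGC, TTTGGCGC, TTTCGCGC and TTTGCCGC.

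The stretches below are the 200 bases just before the gene start, 5′ to 3′ on the strand of the gene, with every motif match in capitals. They are from Cdk1 (chr10:69352913-69353112, minus strand) and Ccnb2 (chr9:70421555-70421754, minus strand), whose genotypes did not overlap, and Ube2c (chr2:164769729-164769928, plus strand), which was not higher in Harlequin. Rrm2 (chr12:24708054-24708253, plus strand) and Mcm6 (chr1:128359706-128359905, minus strand) stand for replication. No annotated RefSeq gene overlaps any of the 5 stretches.
Cdk1: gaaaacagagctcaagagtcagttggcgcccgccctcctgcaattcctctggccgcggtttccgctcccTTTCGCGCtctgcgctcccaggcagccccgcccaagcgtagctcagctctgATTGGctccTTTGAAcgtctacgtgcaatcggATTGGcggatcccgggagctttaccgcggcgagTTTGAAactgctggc
Ccnb2: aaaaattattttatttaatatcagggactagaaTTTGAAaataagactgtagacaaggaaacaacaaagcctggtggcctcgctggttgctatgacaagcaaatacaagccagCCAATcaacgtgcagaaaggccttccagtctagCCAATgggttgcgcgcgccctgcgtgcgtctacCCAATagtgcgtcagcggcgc
Ube2c: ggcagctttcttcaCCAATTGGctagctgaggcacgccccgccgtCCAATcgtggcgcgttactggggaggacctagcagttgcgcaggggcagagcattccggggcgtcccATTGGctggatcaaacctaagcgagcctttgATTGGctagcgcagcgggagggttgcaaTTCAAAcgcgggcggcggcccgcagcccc
Rrm2: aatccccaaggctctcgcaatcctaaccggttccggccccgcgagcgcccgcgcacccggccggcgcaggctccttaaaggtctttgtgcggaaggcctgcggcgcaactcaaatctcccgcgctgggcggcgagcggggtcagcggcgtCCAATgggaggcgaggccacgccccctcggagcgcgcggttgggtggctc
Mcm6: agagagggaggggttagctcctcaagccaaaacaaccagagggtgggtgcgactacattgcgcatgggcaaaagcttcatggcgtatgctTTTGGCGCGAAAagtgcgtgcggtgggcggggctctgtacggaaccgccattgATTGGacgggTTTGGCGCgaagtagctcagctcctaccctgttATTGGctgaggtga

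TTTGAA was present in 12 of 15 mitosis windows and in 2 of 15 replication windows, those of Mcm2 and Cdc45. It was present in 12.0% of the windows of all genes tested and in 17.9% of all 32851 windows. All 12 mitosis windows with TTTGAA also held CCAAT, a combination found in 4.57% of the windows of genes tested. In Cdk1 the TTTGAA matches began 71 and 15 bases before the gene start, and in Ube2c a match on the other strand began 29 bases before it. For 5 of the 12 genes (Aurka, Bub1b, Cenpa, Kif23 and Plk1) the matches lay only after the gene start. Birc5, Bub1 and Nusap1 had none of these letters in the window.

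An E2F form was present in 5 of 15 replication windows, those of Cdc6, Mcm3, Mcm5, Mcm6 and Mcm7, and in 1 of 15 mitosis windows, that of Cdk1. The share was 3.76% for genes tested and 2.26% for all windows. In Mcm5 and Mcm6, a pair of E2F matches on opposite strands overlapped each other, and in Mcm7 an E2F form overlapped a CCAAT box. CCAAT was common in both sets, in 11 of 15 replication and 13 of 15 mitosis windows, against 37.0% for genes tested. Within the mitosis set TTTGAA was held both by Mki67, Cdk1 and Ccnb2, whose differences were 0.31 or more, and by Kif11 and Ube2c, whose differences were below 0.

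**Figure D4:**
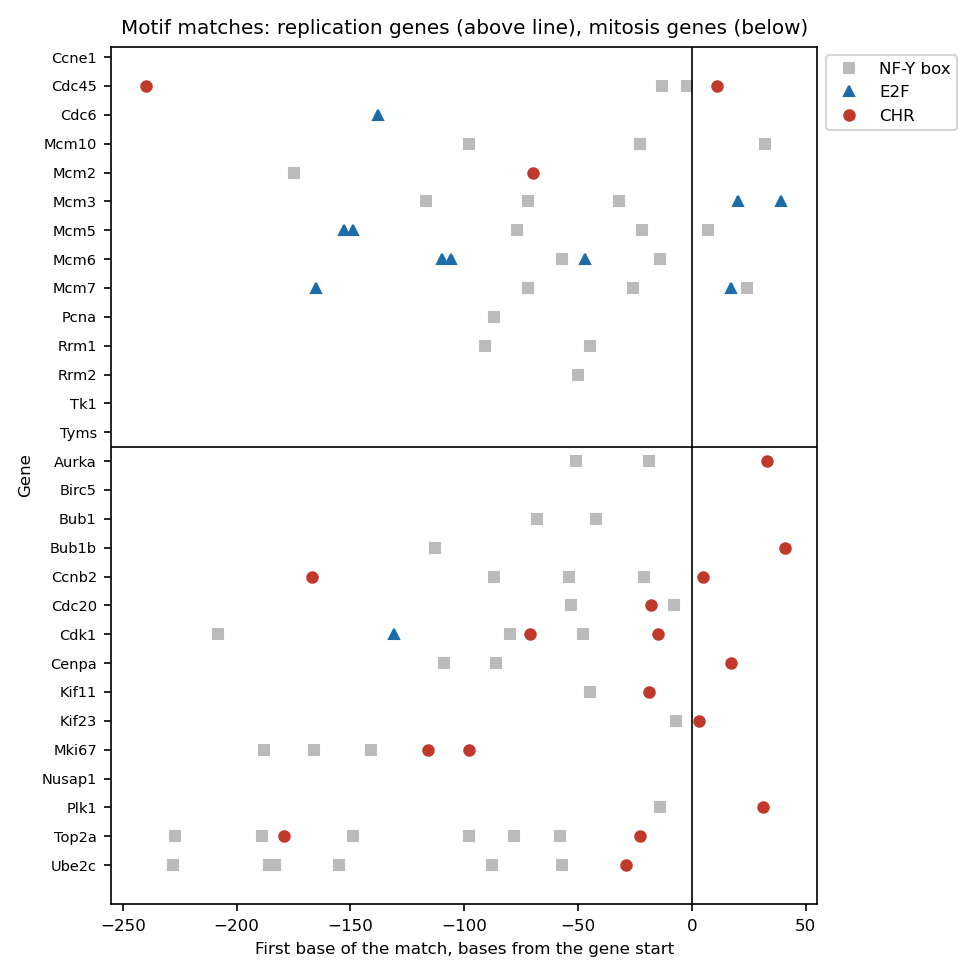
Position of the first base of each motif match, in bases from the gene start (vertical line), for the 29 genes with a RefSeq window of 250 bases before to 50 after the start; for Mcm7 1 of its 2 windows is drawn. CHR matches (red) are seen in 12 mitosis genes and 2 replication genes, E2F matches (blue) in 5 replication genes and 1 mitosis gene, and NF-Y boxes (grey) in both.

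Other genes of the same pathways were read from 3 further lists. Of 36 tested genes of origin licensing, DNA polymerases and chromatin copying, 24 had a difference above 0, 0 passed the test and the median was 0.04. The maintenance DNA methyltransferase Dnmt1 gave 728.1, 834.7 and 834.8 in Harlequin and 702.5, 601.5 and 716.7 in controls, without overlap (log2 difference 0.24). The replication protein A subunit Rpa2 was also higher without overlap (0.22), the clamp loader subunit Rfc4 lower without overlap (-0.20), and Gmnn, for the licensing inhibitor geminin, differed by 0.29 with overlap. In the full list 2 genes lay higher and 1 lower without overlap, set against 5.02% and 5.34% of all genes.

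Of 32 tested spindle, kinetochore and cytokinesis genes, 19 had a difference above 0, 0 passed and the median was 0.04. Pttg1 encodes securin, the inhibitor of separase that is destroyed at anaphase. It gave 12542.7, 8608.9 and 11363.4 in Harlequin and 8077.2, 7846.9 and 8098.8 in controls, so that the groups did not overlap (log2 difference 0.42, limma adjusted p = 0.981). The spindle-binding protein gene Hmmr differed by 0.59, the checkpoint protein gene Mad2l1 by 0.27 and the phosphatase gene Cdc25b, which activates CDK1, by 0.37. Of these, Cdc25b did not overlap between the genotypes. In the full list 2 genes lay higher and 1 lower without overlap, beside the 5.02% and 5.34% of all genes.

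Among 32 tested regulators and inhibitors, 19 differences lay above 0, 0 genes passed and the median was 0.05. Higher signals without overlap were seen for 2 inhibitors of cyclin-dependent kinases. Cdkn1c, for p57, gave 336.5, 375.6 and 322.7 in Harlequin and 270.9, 271.2 and 268.3 in controls (0.33), and Cdkn1a, for p21, gave 2436.8, 2183.7 and 2055.7 against 1971.8, 2017.0 and 1608.7 (0.26). E2f2, an activator of S phase genes, was higher (0.65) and E2f5, a repressor of the family, lower (-0.29), both without overlap. In all, 4 genes of this list lay higher and 1 lower without overlap, where 5.02% and 5.34% of all genes did. None of the genes named from these 3 lists passed over all genes, with a limma adjusted p of 0.981 for each. All 3 medians lay nearer to 0 than those of the replication and mitosis genes.

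Markers of cell types that can hold dividing cells were read on the same arrays. Globose basal cells and neuronal progenitors, the dividing cells of the epithelium, gave a score of -0.31, 0.13 and 0.002 in Harlequin and 0.04, 0.13 and 0.01 in controls. Of its 10 tested genes 1 had a difference above 0, Pax6 (0.26), while the transcription factor gene Sox2 differed by -0.28 and the receptor gene Kit by -0.22. Summed over the list, the signal ranged from 7293.1 to 8921.5 in the mutants and from 7912.3 to 9267.4 in the controls. Horizontal basal cell markers gave 0.47, -0.26 and -0.10 in Harlequin and -0.52, 0.24 and 0.17 in controls, with 4 of 8 genes above 0 and sums of 3594.8 to 8169.2 and 3216.9 to 5655.6. Harlequin replicate 1, high in both cell cycle scores, and control replicate 2, lowest in both, were the highest arrays in this list.

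Markers of blood cells were read next. The erythroid score was 0.26, 0.72 and 0.32 in Harlequin and -0.51, -0.94 and 0.16 in controls. All 10 tested genes had a difference above 0, with summed signals of 10172.2 to 13426.3 in Harlequin and 6353.2 to 9706.7 in controls, and Epb42 lay below the minimum signal. The haem synthesis gene Alas2 gave 1930.1, 1822.8 and 1242.7 against 601.2, 359.3 and 812.7. The neutrophil and marrow granulocyte score was 0.62, 0.44 and -0.10 in Harlequin and -0.27, -1.10 and 0.42 in controls. All 12 tested genes had a difference above 0, and 1 of them, Chil3, passed over all genes. The sums were 42164.9 to 62338.4 and 22514.6 to 54776.7, and Chil3 gave 1676.0, 2187.6 and 2024.4 against 293.8, 581.9 and 404.8 (limma adjusted p = 0.0315).

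Control replicate 2 was lowest and control replicate 3 highest among the controls in the replication, mitosis, erythroid and neutrophil scores alike. Harlequin replicate 3 was the lowest mutant in the replication, mitosis and neutrophil scores. Macrophage markers had the same layout, at 0.15, 0.14 and -0.02 in Harlequin and -0.13, -0.25 and 0.11 in controls. Of these markers, 8 of 12 had a difference above 0, with sums of 6401.4 to 8389.1 and 5619.9 to 7121.1. The part of blood, marrow or macrophage RNA in the cell cycle values was not tested. The B and plasma cell score was 0.32, 0.13 and 0.21 in Harlequin against -0.05, -0.30 and -0.30 in controls. This score did not overlap between the genotypes, and neither did the erythroid score. Of the 6 tested B and plasma cell genes, 5 had a difference above 0. Singly, 2 of them lay higher and 0 lower without overlap, against 5.02% and 5.34% of all genes. Their sums were 11019.2 to 12883.3 in Harlequin and 11154.4 to 12612.7 in controls, and Cd79a, Pax5, Vpreb1, Rag1 and Dntt lay below the minimum signal. Control replicate 3 was low in this list and high in both cell cycle scores.

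**Figure D5:**
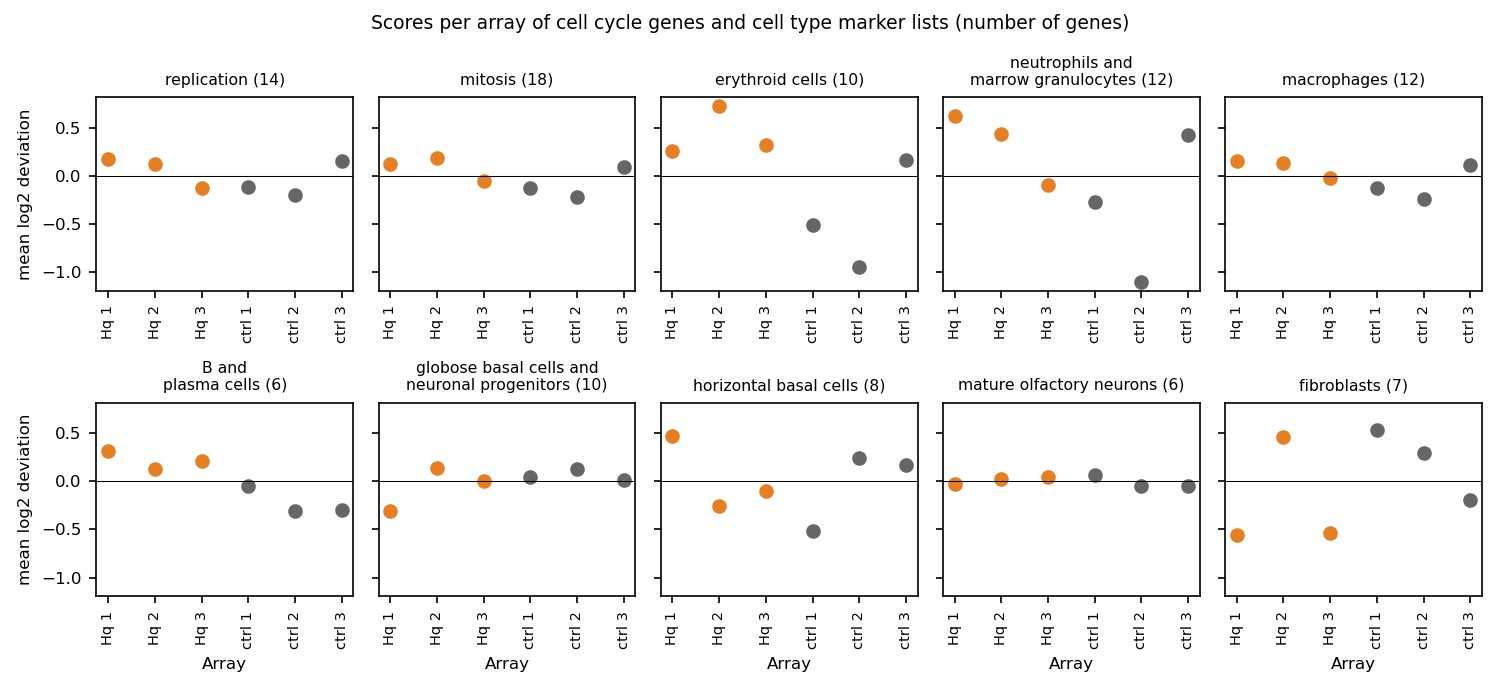
Scores per array (mean log2 deviation from each gene's mean over 6 arrays, with the number of genes in parentheses) for the replication and mitosis genes and for 8 marker lists. Orange points are Harlequin arrays and grey points control arrays, in replicate order. Erythroid, neutrophil and macrophage scores are lowest in control replicate 2, as are both cell cycle scores, while the globose basal score runs from -0.31 to 0.13, and the mature neuron score from -0.05 to 0.06.

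Fibroblast markers ran differently, at -0.56, 0.46 and -0.53 in Harlequin and 0.53, 0.30 and -0.20 in controls, with 0 of 7 genes above 0 and sums of 19525.4 to 38094.8 and 25434.6 to 40116.3. T cell markers were represented by Cd8a alone, with Cd3e, Cd3g, Cd3d and Cd4 below the minimum signal. Mature neuron markers lay between -0.05 and 0.06 on all 6 arrays. RNA integrity was read from the Gapdh probe sets, as signal at the 3′ end over signal at the 5′ end. This ratio was highest in control replicate 3 (0.846) and lowest in Harlequin replicate 3 (0.729) and control replicate 2 (0.74). Harlequin replicates 1 and 2 had ratios of 0.79 and 0.787, and control replicate 1 had 0.779. The 3 arrays with replication and mitosis scores above 0 thus had higher ratios than the 3 arrays with scores below 0. The margin was narrow, at 0.787 against 0.779. The part of RNA integrity in the scores was not tested.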

How the data were processed

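The authors deposited 1 intensity per probe set, on a linear scale, for each of the 6 arrays, scaled to a common trimmed mean of 500.0, as the values show. The summarization software is not given in the sources used here. Biotin-labelled cRNA was made by the manufacturer's procedure, per the labels' protocols. Groups and replicate numbers came from the sample titles. The 64 control probe sets were left out. For a gene with several probe sets, the one with the largest mean log2(value + 16) was taken, and 13219 genes above the 40th percentile were tested with limma 3.58.1 (R 4.3.3) by lmFit and eBayes with an intensity trend and genotype as the sole term. Two-sided p-values were adjusted by the Benjamini-Hochberg method over all these genes. The fit was tested on simulated data.

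The members, gene lists, alternatives and the split into replication and mitosis were chosen with earlier results of these data known. All 34 genes may be named, then up to 4 genes of each pathway list and 3 of each marker list by smallest p, and Aifm1, Omp and Krt5. Same-numbered arrays did not deviate together (correlations over genes of -0.24, -0.03 and 0.06), so replicate numbers were not used as pairs. Arrays of unlike number ranged from -0.25 (Harlequin replicate 2 with control replicate 3) to 0.30 (Harlequin replicate 2 with control replicate 1). A pairing of mice under other numbers was not tested. As alternatives, a pseudocount of 1 or 64, a filter at the 60th percentile or none, quantile normalization, median scaling, no intensity trend, array weights, other choices of probe set, a replicate block and each array left out were run. Motifs were searched in RefSeq promoter windows.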

Additional observations from a re-analysis of the deposited data

How the results depend on the processing

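In limma, 0 of the members passed in any alternative run, with 1 to 4 at an unadjusted p under 0.05. The main fit had 2 such members, beside 605 of all 13219 genes tested. Without Harlequin replicate 2 there was 1, beside 514 of all genes, and with array weights there were 2, beside 713. Over all genes, 4 passed; the number was 0 without an intensity trend, 7 with every probe set tested on its own and 0 to 3 with 1 array left out. Aifm1 was at -2.20 without the trend (limma adjusted p = 0.0887) and -2.40 to -2.08 with 1 array left out, where its call was lost without any 1 of the 3 controls. With the replicate number as a block, 0 genes passed, 541 had an unadjusted p under 0.05, and Aifm1 kept -2.20 (limma adjusted p = 0.0605); the numbers are not known to pair the mice. The medians and scores of the replication and mitosis sets stayed above 0 in every alternative run. They could not move without an intensity trend or with the replicate block, and the scores took no account of array weights. The counts of genes above 0 did move. With the mean over all probe sets of a gene, dim ones included, 23 of the 32 members were above 0. These were 12 of 14 replication genes and 11 of 18 mitosis genes. The score differences were then 0.14 for replication and 0.12 for mitosis.

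Some members changed sign. Cdc45 was at 0.014 with quantile normalization, 0.016 with median scaling and 0.11 as the mean over its probe sets. That mean was 0.051 for Mcm2, -0.028 for Mcm4, -0.039 for Cdc20, -0.11 for Aurka, -0.11 for Aurkb, -0.15 for Bub1b and -0.10 for Tpx2. Mcm2 was at 0.26 without suffixed probe sets. With 1 array left out the ranges crossed 0 for Pcna (-0.029 to 0.066), Mcm5 (-0.070 to 0.30), Mcm6 (-0.034 to 0.28), Mcm10 (-0.11 to 0.20), Cdc45 (-0.071 to 0.031), Rrm2 (-0.036 to 0.67), Tpx2 (-0.12 to 0.17), Cdc20 (-0.091 to 0.18), Aurka (-0.042 to 0.036), Nusap1 (-0.058 to 0.27), Ube2c (-0.24 to 0.015), Plk1 (-0.072 to 0.48) and Bub1b (-0.0071 to 0.25). For other members the sign held in the alternatives run. It could not change without an intensity trend or with the replicate block, which left the differences as they were. In the run of every probe set, the brightest probe set of each gene was read again. Single probe sets of Mcm7 lay on both sides of 0, from -0.20 to 0.20. The 3 arrays per genotype limit the precision, as the widths of the 95% intervals show.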
